A study of Mus musculus with 8 samples.

Results

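Expression of 10 genes of the fast-twitch contractile apparatus was examined in gastrocnemius, a mixed calf muscle, of 8 mice with or without the acetyltransferase Gcn5 in their muscle fibres. The genes were chosen by name (Myh2, Myh1, Myh4, Mylpf, Tnnt3, Tnni2, Tnnc2, Atp2a1, Pvalb and Actn3). Each had 1 transcript cluster annotated to its symbol alone, so all 10 were measured among 19938 genes, and no filter on dim genes was applied. The arrays were Affymetrix whole-transcript arrays with 1 array per animal, and values are on the log2 scale after robust multi-array averaging (RMA).

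All animals were males aged 6 months on a chow diet, fasted for 5 h. Both genotypes carried the floxed allele that the labels call Gcn5 L2/L2. The 4 knockouts (Gcn5skm-/-) also had the HSAcre transgene (HSAcre Tg/0), in which the human skeletal actin promoter drives Cre in muscle fibres. The 4 wild types (Gcn5skm+/+) lacked it (HSAcre 0/0). Cre was therefore present in the knockouts alone, and effects of Cre and of the deletion cannot be told apart. Cells other than fibres keep Gcn5. Kat2a, the gene of Gcn5, measured 5.73 to 5.84 in the knockouts and 6.43 to 6.50 in the wild types, without overlap. The arrays had medians of 4.61 to 4.72. Wild type 2 was the array least like the rest (mean r across transcript clusters 0.977, against 0.981 to 0.987 for the others).

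Fast (type II) fibres of mouse limb muscle come in kinds named after their myosin heavy chain, the motor protein of the thick filament. Myh2 encodes the chain of type IIa fibres, which are oxidative, Myh1 that of type IIx fibres and Myh4 that of type IIb fibres, which contract fastest and depend most on glycolysis. The other genes serve all fast fibres to varying extents: a light chain (Mylpf), the troponin subunits that switch the thin filament on with calcium (Tnnt3, Tnni2 and Tnnc2), the pump and buffer that take calcium away again (Atp2a1 and Pvalb) and a cross-linker of the Z-disc (Actn3). In whole muscle a lower value can mean fewer fibres of a kind or less RNA per fibre, and these cannot be told apart.

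None of the 10 fast-fibre genes passed in the comparison of knockout with wild type. By limma, with Benjamini-Hochberg adjustment over all genes, 0 of 10 had an adjusted p under 0.05, against 3 of 19938 genes tested (0.015%), which were Kat2a, Lrtm1 and Ssbp2. At an adjusted p under 0.10 the count was 0 of 10 against 0.0802%, and at an unadjusted p under 0.05 it was 0 of 10 against 5.73%. The genotypes overlapped for each of the 10, and 3.62% of all genes had groups that did not overlap. At shares this small, counts of 0 of 10 say little about these genes. Of the 10 differences, 6 were above 0 and 4 below, with a median of 0.00513 log2 units against -0.01 over all genes. What varied was the level of Myh2 and Myh1 from animal to animal within each genotype, more widely among the knockouts. The range of Myh2 was 2.49 in knockouts and 0.891 in wild types, and that of Myh1 1.17 and 0.518. Whether the genotypes differ in spread was not tested.

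**Figure D1:**
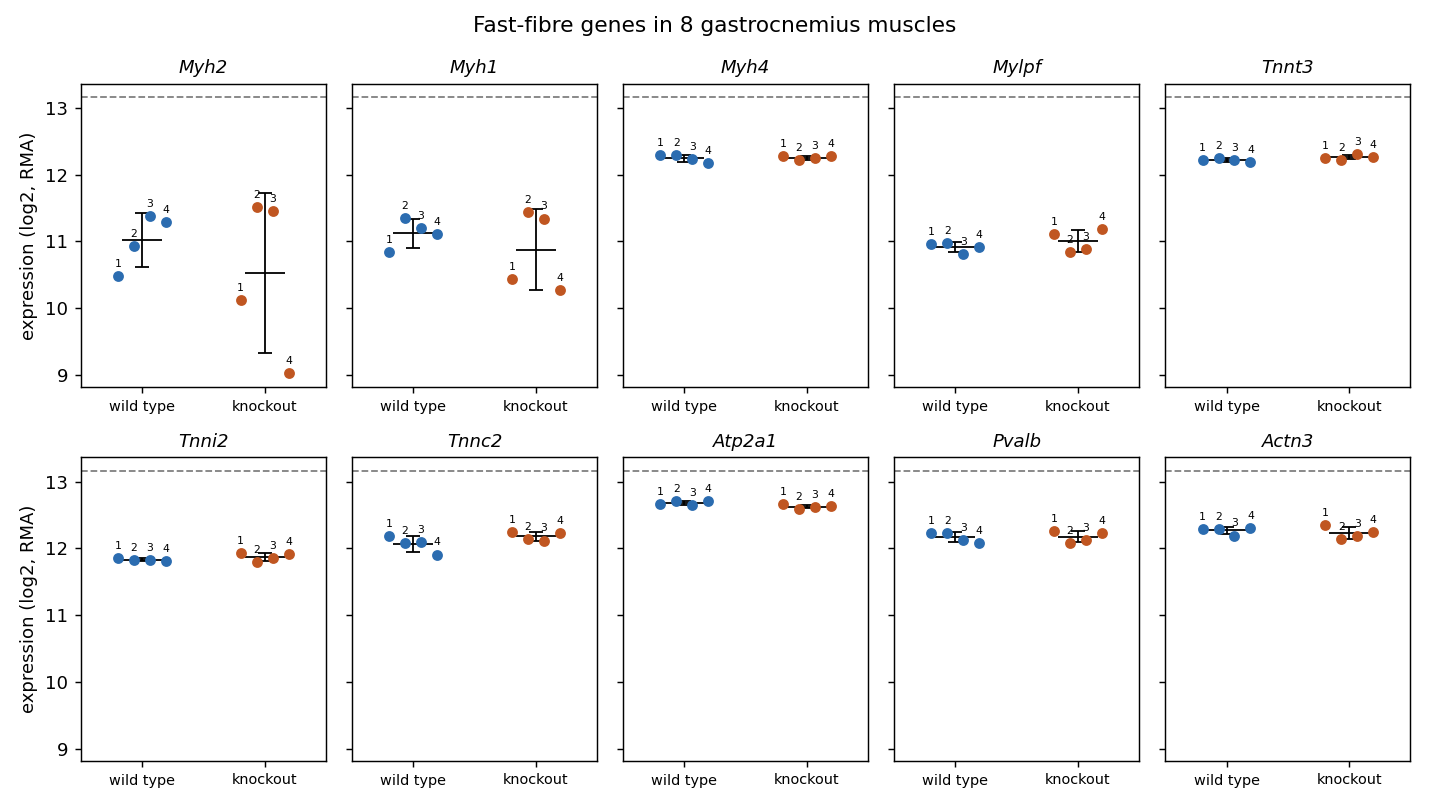
Expression (log2, RMA) of the 10 fast-fibre genes in 4 wild-type (blue) and 4 knockout (orange) muscles, numbered by replicate; black lines give the mean ± SD and the dashed line the median of the arrays' highest values. Myh2 spans 9.03 to 11.52 and Myh1 10.28 to 11.44, while Myh4 stays between 12.18 and 12.29.

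Myh2, the IIa marker (transcript cluster 10377055), measured 10.49, 10.93, 11.38 and 11.29 in wild types 1 to 4 and 10.12, 11.52, 11.46 and 9.03 in knockouts 1 to 4. Knockouts 1 and 4 lay below every wild type, and knockouts 2 and 3 lay above every wild type. The means were 11.02 ± 0.40 in wild type and 10.53 ± 1.19 in knockout (SD, n = 4 each). The difference of -0.49 (SE 0.45, 95% interval -1.46 to 0.48, limma adjusted p = 0.912) corresponded to 0.712 of the wild-type level, with an interval from 0.363 to 1.40. It rested on knockout 4, since without that array it was 0.01. Between the highest and lowest muscle, both of them knockouts, Myh2 differed 5.63-fold.

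Myh1, the IIx marker (transcript cluster 10377087), measured 10.84, 11.35, 11.21 and 11.11 in wild types 1 to 4. The knockouts gave 10.43, 11.44, 11.34 and 10.28 in the same order. Again knockouts 1 and 4 were the lowest arrays of all, while knockout 2 was the highest and knockout 3 lay just under wild type 2. The means of 11.13 ± 0.22 and 10.87 ± 0.60 (SD, n = 4 each) differed by -0.25 (SE 0.24, 95% interval -0.77 to 0.26, limma adjusted p = 0.917). That is 0.840 of the wild-type level, with an interval from 0.588 to 1.20. Without knockout 4 the difference was -0.05, and without both wild type 2 and knockout 4 it was 0.02.

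Myh4, the IIb marker (transcript cluster 10377117), measured 12.29, 12.29, 12.24 and 12.18 in wild types 1 to 4 and 12.28, 12.22, 12.24 and 12.27 in knockouts 1 to 4. No array stood apart, and all 8 lay within 0.108 log2 units, or 1.08-fold. The difference was 0.00408 (SE 0.08, limma adjusted p = 0.995), and its 95% interval of -0.16 to 0.17 covers a ratio of knockout to wild type from 0.892 to 1.13. This value lies near the upper end of the array scale, as described further on.

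The balance of the myosins was followed as differences within each array, which show unequal change between probe sets and not a ratio of transcript amounts. Since Myh4 spanned only 0.108 log2 units, the differences from it largely repeat the Myh2 and Myh1 values. Myh2 minus Myh4 was -1.80, -1.36, -0.86 and -0.90 in wild types 1 to 4. In knockouts 1 to 4 it was -2.16, -0.70, -0.78 and -3.25. The groups overlapped, with means of -1.23 ± 0.45 and -1.72 ± 1.22 (SD, n = 4 each). Myh1 minus Myh4 ranged from -1.45 to -0.94 in wild type and from -2.00 to -0.78 in knockout, with the lowest values again in knockouts 1 and 4. Myh2 minus Myh1 lay between -0.42 and 0.18 in all arrays except knockout 4, where it was -1.25, so in that muscle the IIa marker was low even relative to the IIx marker.

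The 3 myosin genes are neighbours in the order Myh2, Myh1, Myh4 in RefSeq's mouse gene table (GRCm38.p6), flanked by the embryonic and perinatal myosin genes Myh3 and Myh8. Their promoters are shown because the first and second of these genes varied together between animals and the third hardly varied. Each is the 250 bases before the RefSeq transcription start in GRCm38.p6, on the plus strand and written 5′ to 3′. They are at chr11:67170777-67171026 (Myh2), chr11:67199852-67200101 (Myh1) and chr11:67237562-67237811 (Myh4). Capitals mark every match to the E-box CANNTG, the TATA box TATAAA, the MEF3 element TCAGGTT, a MEF2 site or a CArG box, searched on both strands.
Myh2: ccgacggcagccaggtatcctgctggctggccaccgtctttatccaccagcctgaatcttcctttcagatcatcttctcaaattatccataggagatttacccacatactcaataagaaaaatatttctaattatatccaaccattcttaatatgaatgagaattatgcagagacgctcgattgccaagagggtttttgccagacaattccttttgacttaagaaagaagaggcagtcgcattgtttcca
Myh1: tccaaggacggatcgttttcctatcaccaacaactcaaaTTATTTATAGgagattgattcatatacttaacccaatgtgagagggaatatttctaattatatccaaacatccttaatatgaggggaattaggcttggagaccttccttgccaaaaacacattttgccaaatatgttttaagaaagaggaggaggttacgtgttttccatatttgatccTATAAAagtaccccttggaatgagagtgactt
Myh4: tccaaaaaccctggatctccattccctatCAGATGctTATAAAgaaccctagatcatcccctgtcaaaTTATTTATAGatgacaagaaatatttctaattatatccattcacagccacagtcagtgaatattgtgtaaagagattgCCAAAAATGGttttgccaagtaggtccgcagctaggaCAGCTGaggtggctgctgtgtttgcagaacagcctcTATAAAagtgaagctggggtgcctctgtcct
The Myh2 window held no match to any of these motifs. The Myh1 window held TATAAA at -32 to -27 from the start, and a MEF2 site at -211 to -202 that overlaps a reverse-strand TATAAA. The Myh4 window held TATAAA at -31 to -26 and again at -213 to -208. It also held a MEF2 site at -182 to -173 overlapping a reverse-strand TATAAA, a CArG box at -104 to -95 and E-boxes at -221 to -216 and -67 to -62. Among 32851 RefSeq promoter windows of the same length, 66.2% held an E-box, 12.4% TATAAA, 3.49% the MEF3 element, 1.69% a MEF2 site and 1.47% a CArG box. RefSeq windows were at hand for 7 of the 10 genes, 8 windows in all since Pvalb had 2 starts. Of these 8, 5 held an E-box, 3 a MEF2 site, 2 TATAAA, 1 a CArG box and 0 the MEF3 element. These matches describe the letters of the windows, and the arrays did not measure binding there.

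Mylpf, the regulatory light chain of fast myosin, measured 10.96, 10.98, 10.81 and 10.91 in wild types 1 to 4 and 11.12, 10.84, 10.89 and 11.19 in knockouts 1 to 4. The highest arrays were knockouts 4 and 1, the ones with the lowest Myh2, while the other knockouts lay among the wild types. The means of 10.91 ± 0.08 and 11.01 ± 0.17 (SD, n = 4 each) differed by 0.10 (SE 0.10, limma adjusted p = 0.926). Without knockout 4 the difference was 0.04.

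The fast troponin genes were alike in showing small differences. Tnnt3, which encodes the subunit that anchors the complex to tropomyosin, measured 12.22, 12.25, 12.22 and 12.19 in wild types 1 to 4 and 12.26, 12.23, 12.31 and 12.27 in knockouts 1 to 4. Knockout 3 was the highest and only knockout 2 lay inside the wild-type range. Its difference was 0.04 (SE 0.08, limma adjusted p = 0.949). Tnni2, the inhibitory subunit, ranged from 11.81 to 11.86 over the wild types, and knockouts 1 to 4 gave 11.94, 11.80, 11.86 and 11.91. As with Mylpf, knockouts 1 and 4 were the highest, and the difference was 0.04 (SE 0.08, limma adjusted p = 0.952). Leaving out knockout 1 gave 0.02.

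Tnnc2, the calcium-binding troponin subunit, had the smallest p of the 10 genes. It measured 12.19, 12.08, 12.10 and 11.91 in wild types 1 to 4 and 12.24, 12.13, 12.12 and 12.23 in knockouts 1 to 4. Knockouts 1 and 4 lay above every wild type, and wild type 4 lay below all other arrays. The means were 12.07 ± 0.12 and 12.18 ± 0.06 (SD, n = 4 each), and the difference of 0.11 (SE 0.09, 95% interval -0.08 to 0.30) had a limma adjusted p of 0.900. Without wild type 4 it was 0.06.

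Atp2a1, the fast-fibre calcium pump SERCA1, measured 12.66, 12.71, 12.64 and 12.71 in wild types 1 to 4 and 12.66, 12.60, 12.62 and 12.63 in knockouts 1 to 4. Knockouts 2, 3 and 4 lay below every wild type and knockout 1 among them. The spread was nonetheless tiny, 0.116 log2 units over the 8 arrays, and the difference was -0.05 (SE 0.08, limma adjusted p = 0.939). Pvalb, parvalbumin, which soaks up calcium between contractions, measured 12.24, 12.24, 12.13 and 12.09 in wild types 1 to 4 and 12.26, 12.09, 12.13 and 12.23 in knockouts 1 to 4. High and low values occurred in both genotypes alike, and the difference was 0.00618 (SE 0.08, 95% interval -0.18 to 0.19, limma adjusted p = 0.994).

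Actn3, the alpha-actinin found in fast fibres, measured 12.30, 12.29, 12.19 and 12.31 in wild types 1 to 4 and 12.36, 12.14, 12.19 and 12.25 in knockouts 1 to 4. Knockout 1 was the highest array and knockout 2 the lowest, so the knockouts spanned the whole range. The difference was -0.04 (SE 0.08, 95% interval -0.22 to 0.15, limma adjusted p = 0.967). It was -0.08 without knockout 1 and -0.00357 without knockout 2.

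**Figure D2:**
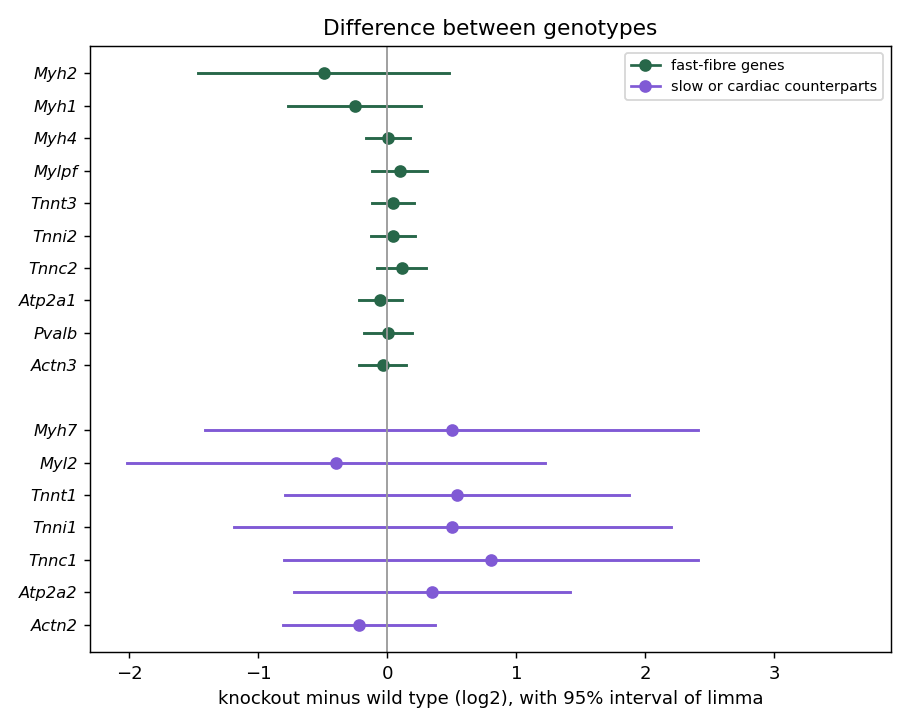
Difference between genotypes (knockout minus wild type, log2) with the 95% interval of limma for the 10 fast-fibre genes (green) and 7 slow or cardiac counterparts (purple), 4 arrays per genotype. Every interval includes 0; that of Myh4 runs from -0.16 to 0.17 and that of Myh2 from -1.46 to 0.48.

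Most of these genes lay near the top of the range that the arrays return. The highest value on any array was 13.09 to 13.22. Atp2a1 ranked 34th among all 35556 transcript clusters by mean signal and lay on average 0.503 log2 units under its array's highest value. Actn3, Myh4, Tnnt3, Pvalb and Tnnc2 ranked 70th, 71st, 73rd, 81st and 87th, with average gaps of 0.906, 0.907, 0.914, 0.984 and 1.03. Tnni2 ranked 107th (gap 1.30), Myh1 275th (2.16), Mylpf 287th (2.20) and Myh2 349th (2.38). These ranks describe probe brightness and do not order the transcripts by amount.

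The brightest genes as a class varied little. The 22 genes with a mean of 12 or above, 6 of them among the 10, had a median range over the 8 arrays of 0.127 log2 units, and the widest was 0.452 (Trdn, the triad protein triadin, named after its value was seen). For 60 genes between 11 and 12 the median range was 0.225, for 180 between 10 and 11 it was 0.323 and for 1297 between 8 and 10 it was 0.393. Read against genes of like brightness, the range of Myh4 exceeded 18.2% of its class, Tnnt3 31.8%, Atp2a1 36.4%, Pvalb 59.1%, Actn3 72.7% and Tnnc2 86.4%. Tnni2 exceeded 10% of the class between 11 and 12, and Mylpf 66.7% of that between 10 and 11. By contrast Myh1, with a range of 1.17, exceeded 93.3% of its class, and Myh2, with 2.49, had the widest range of the 180 genes in its class. Whether bright probes saturate here was not tested, so a narrow interval for a gene such as Myh4 limits the change in array signal, not in RNA.

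**Figure D3:**
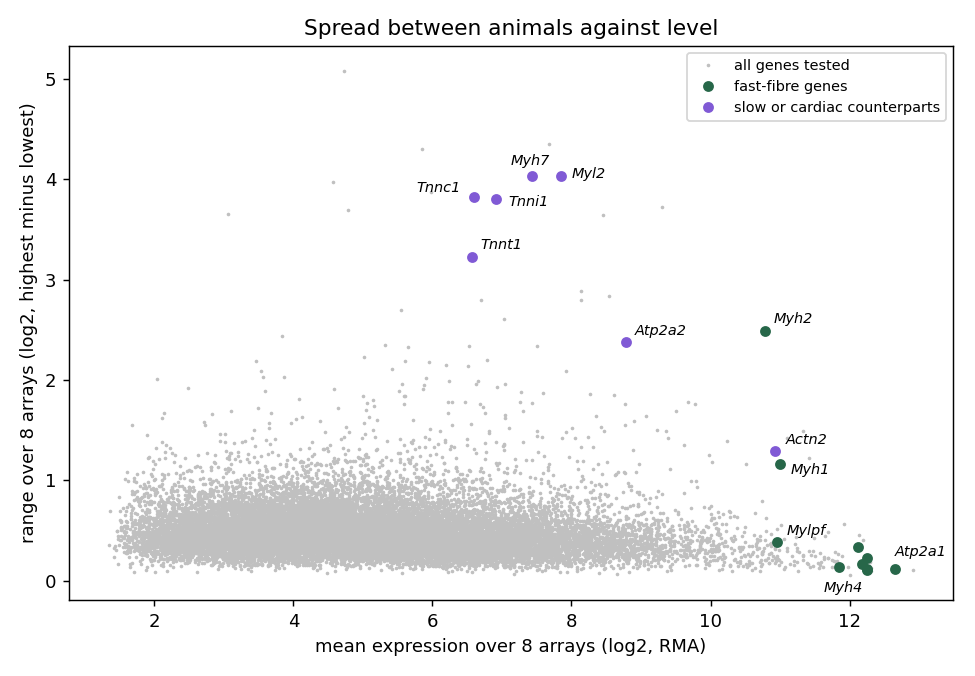
Range over the 8 arrays (highest minus lowest, log2) against mean expression (log2, RMA) for 19938 genes (grey), with the 10 fast-fibre genes in green and 7 slow or cardiac counterparts in purple. Ranges narrow towards the right; Myh2 (2.49) and Myh1 (1.17) stand above genes of like brightness, and Myh4 (0.108) lies near the bottom.

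Relations among the myosin genes were computed over the 8 animals, for the 6 pairs of Myh2, Myh1, Myh4 and the slow myosin gene Myh7. Myh2 and Myh1 went together (Pearson r = 0.928, exact permutation p = 0.00117, adjusted over the 6 pairs 0.00699; Spearman rho = 0.857, exact permutation p = 0.0107, adjusted 0.0643). After centring each genotype on its own mean r was 0.921. Without knockouts 1 and 4, the arrays farthest from the median of Myh2, r over the remaining 6 arrays was 0.750 (exact permutation p = 0.0694, not adjusted). Fewer arrays and a narrower span of Myh2 can by themselves lower r and raise p. Whether the relation rests on those muscles can therefore not be told. Near-identical myosin paralogs can share probe signal, which was not tested.

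The other 5 pairs had adjusted p values of 0.190 to 0.487 for Pearson's r and 0.138 to 0.977 for rho in the exact permutation test. Myh2 with Myh4 gave r = -0.59 and rho = -0.60, and r = -0.72 without knockouts 1 and 4. Myh2 with Myh7 gave r = 0.590 and rho = 0.595, and r = 0.366 without them. Myh1 with Myh7 gave r = 0.627 and rho = 0.738. Wild type 3 shows how loose the tie to slow myosin was, since it had high Myh2 (11.38) and nearly the lowest Myh7 (5.33).

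**Figure D4:**
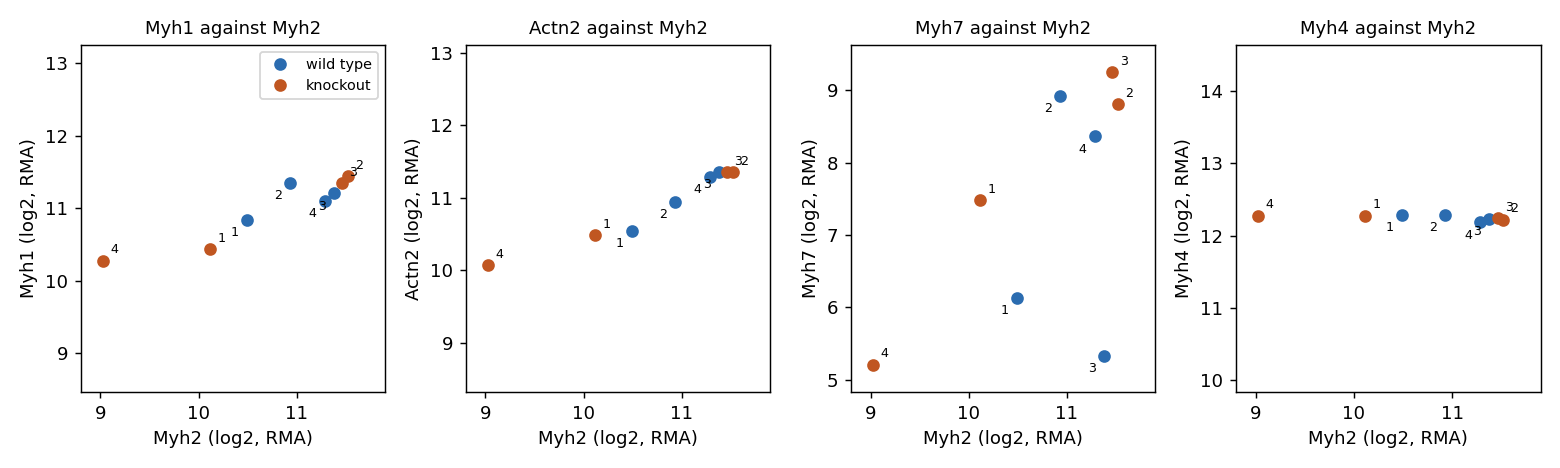
Expression (log2, RMA) of Myh1, Actn2, Myh7 and Myh4 against Myh2 in the 4 wild-type (blue) and 4 knockout (orange) muscles, numbered by replicate, with vertical axes of equal span. Actn2 climbs with Myh2 through both genotypes, and Myh1 does so through the knockouts. Among the wild types Myh1 is highest (11.35) where Myh2 is 10.93, and lower (11.21) where Myh2 is highest (11.38). Myh7 is scattered, and Myh4 stays between 12.18 and 12.29.

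The genes with the pattern most like each myosin were taken from 16925 genes with an SD over the arrays of at least 0.1, as a description over 8 arrays that share animals and normalization. Closest to Myh2 were Mb (r = 0.994), which encodes the oxygen store myoglobin, Rcan2 (0.990), an inhibitor of calcineurin, and Atp1b1 (0.979), a subunit of the sodium pump. Mb put the 8 muscles in the same order as Myh2. It measured 11.18, 11.47, 11.73 and 11.64 in wild types 1 to 4 and 11.10, 11.82, 11.79 and 10.60 in knockouts 1 to 4. Closest to Myh1 were Mybpc1 (0.988), the slow-type myosin-binding protein C, Slc38a3 (0.983), a glutamine transporter, and Myom3 (0.976), an M-band protein. Closest to Myh4 were Trmt5 (0.992), Tars (0.962) and Gabra2 (0.961), which matched a myosin range of only 0.108 log2 units. Trmt5 likewise put the 8 muscles in the same order as Myh4, so an identical order was not particular to Mb.

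Slow fibres build the same apparatus from other genes, and 7 of these counterparts were set beside the fast ones. By limma 0 of 7 passed, against 0.015% of all genes. The differences ran from -0.40 for Myl2 to 0.80 for Tnnc1, with limma adjusted p values of 0.914 or more. The genotypes overlapped for each, and 3.62% of all genes had groups that did not overlap. Counts of 0 of 7 therefore say little about these genes. The median difference of the counterparts was 0.50, against 0.00513 for the fast genes, with far wider spread between animals. Myh7, the slow myosin, measured 6.13, 8.92, 5.33 and 8.36 in wild types 1 to 4. In knockouts 1 to 4 it measured 7.48, 8.81, 9.24 and 5.21, a span of 4.03 log2 units. Thus both genotypes held muscles with high and with low slow-fibre signal.

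Pair by pair, the range over the 8 arrays was 0.383 for Mylpf and 4.03 for its slow counterpart Myl2. For the troponins it was 0.115 for Tnnt3 and 3.23 for Tnnt1, 0.137 for Tnni2 and 3.80 for Tnni1, and 0.332 for Tnnc2 and 3.82 for Tnnc1. The pumps differed in the same way, with 0.116 for Atp2a1 and 2.38 for the slow and cardiac form Atp2a2. These pairs were not of like brightness. Myl2, Tnnt1, Tnni1 and Tnnc1 had means of 6.56 to 7.85, and genes between 6 and 8 had a median range of 0.415. Their ranges exceeded 99.87% to 99.96% of that class, and Atp2a2 exceeded 99.5% of the class between 8 and 10. Knockout 4 had the lowest value of each of the 7 counterparts. Actn2, the alpha-actinin gene set beside Actn3, had its low values in the same muscles as Myh2, with 10.54, 10.95, 11.36 and 11.28 in wild types 1 to 4 and 10.49, 11.35, 11.36 and 10.07 in knockouts 1 to 4.

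Lists of related genes gave the same count of 0, where only 0.015% of all genes passed, so lists of this size could hardly give another. Of 8 other fast contractile genes (Myl1, Mybpc2, Tpm1, Myoz1, Mylk2, Casq1, Tmod4 and Myom2) 0 passed by limma, 2 were higher and 6 lower, and the median difference was -0.02 against -0.01 over all genes. Mylk2, the skeletal myosin light chain kinase, had the smallest p of that list. It ranged from 10.79 to 11.07 over the wild types, and knockouts 1 to 4 gave 10.95, 10.47, 10.45 and 10.80. Knockouts 2 and 3, where Myh2 was highest, were low, and the difference was -0.26 (SE 0.12, limma adjusted p = 0.861). Myom2, the fast M-band protein, differed by -0.10 (limma adjusted p = 0.931).

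Of 8 enzymes typical of fast glycolytic fibres 0 passed, with 4 higher, 4 lower and a median of -0.000388. Pgam2, muscle phosphoglycerate mutase, differed by -0.10 (limma adjusted p = 0.897) and Ampd1, muscle AMP deaminase, by -0.06 (0.939). Of 12 slow-fibre genes 0 passed, with 7 higher, 5 lower and a median of 0.15. Tnnc1 differed by 0.80 and Mybpc1 by -0.34 (limma adjusted p = 0.914 and 0.920). Of 3 developmental myosin genes 0 passed, with Myh3 at 0.09 and Myh8 at 0.03 (limma adjusted p = 0.942 and 0.978).

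Of 4 transcription factors and cofactors of the fast programme 0 passed by limma and all 4 were lower, with a median of -0.20 against -0.01 over all genes. Eya1, a transcriptional coactivator, measured 8.16, 8.34, 8.22 and 8.12 in wild types 1 to 4 and 8.07, 7.81, 7.73 and 8.15 in knockouts 1 to 4. Knockouts 2 and 3 were the lowest arrays, knockout 4 lay within the wild-type range, and the difference was -0.27 (SE 0.11, unadjusted p = 0.0277, limma adjusted p = 0.859). Tbx15, a T-box factor of glycolytic fibres, differed by -0.21 (SE 0.10, limma adjusted p = 0.861), Six4 by -0.19 and Sox6, a repressor of slow-fibre genes, by -0.04.

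The samples carried the markers of skeletal muscle fibres. Acta1, Ckm, Neb and Ttn had means of 12.19 to 12.67 in each genotype, and the mean of 8 fibre markers was 11.37 to 11.44 in wild types and 11.29 to 11.38 in knockouts. Of the 8, 0 passed by limma and all 8 were lower, with a median of -0.04 against -0.01 over all genes. Des, the intermediate filament protein desmin, was the single marker whose genotypes did not overlap (11.87 ± 0.03 and 11.78 ± 0.04, SD, n = 4 each, limma adjusted p = 0.904), and was named after its values were seen. Over all genes 3.62% did not overlap.

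The mean of the macrophage markers was highest in knockout 4, the muscle with the lowest Myh2. The mean of 9 macrophage markers ranged from 5.78 to 5.86 over the wild types, and knockouts 1 to 4 gave 6.03, 5.96, 6.32 and 6.86. The ranges of single markers over the 8 arrays ran from 0.332 to 3.88 log2 units (median 0.830), so the mean can rest on few of them. By limma 0 of 9 passed, and 8 of 9 were higher, with differences from -0.11 to 1.29. The list was chosen with earlier results of these data known, and its markers share animals, so the shares that follow only describe it. At an unadjusted p under 0.05 there were 6 of 9, against 5.73% of all genes. The genotypes did not overlap for 3 of 9 (Cd68, Adgre1 and Lgals3, named after their values were seen), against 3.62% of all genes. None of the 9 lay below the 25th percentile of every array. Knockout 1, the other muscle with low Myh2, had a macrophage mean close to that of knockout 2, where Myh2 was highest. Adipocyte markers had a mean of 4.76 to 6.04 in wild types and 4.97 to 6.30 in knockouts, endothelial markers 7.23 to 7.53 and 7.12 to 7.61, and tendon markers 5.88 to 6.22 and 5.80 to 6.52. The 2 measured Schwann cell markers of 4 had means of 6.85 to 8.38 and 7.10 to 7.80. The part of other cells in the Myh2 and Myh1 values was not tested.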

How the data were processed

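The authors deposited log2 expression values for 35556 transcript clusters in 8 arrays, for which the submitters' processing notes name RMA and Affymetrix Expression Console. RMA corrects background, equalises arrays by quantiles and summarises probes. The software version and array build are not given in the sources used here. Per the labels' protocols, 100 ng of total RNA was amplified and 5500 ng of cDNA labelled.

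Clusters with 1 gene symbol in the array annotation were used (21789 clusters), with the brightest cluster for each of 999 genes that had several. Genes were compared with limma 3.58.1 in R 4.3.3 (lmFit and eBayes, 4 arrays against 4, 6 residual and 6.26 prior degrees of freedom) and adjusted by Benjamini-Hochberg over 19938 genes at 0.05. The number of arrays limits the precision, and the median SE was 0.105. On simulated data with 200 changed genes among 19938 in this comparison, limma called 49.6% of changes of 0.5, 92.5% of 1 and 99.4% of 2 log2 units, and 4.74% of calls were false. These shares hold for 200 changed genes and not for a comparison with few calls. They are averages over genes drawn at random from all genes. They do not apply to genes with a much larger SE, such as Myh2 (0.447), Myh1 (0.237) and Myh7 (0.879).

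The 10 genes and all lists were chosen with earlier results of these data known. Named genes were the 10, their counterparts, up to 4 passing members or the 2 smallest p values of each list of related muscle genes, the 3 genes most like each myosin, and Kat2a. Trdn, Des, Acta1, Ckm, Neb, Ttn, Six4, Sox6, Cd68, Adgre1, Lgals3, Lrtm1 and Ssbp2 fall outside this rule. Relations used an exact permutation test, two-sided, over all orderings. One list entry is not reported here. Promoters came from RefSeq (GRCm38.p6). Same-numbered animals had correlations of deviations of 0.0939, 0.0655, 0.222 and -0.10, which were not set against those of differently numbered animals. The labels do not say that the numbers pair animals, so the main fit had no block. Whether they do was not tested. Erythroid and lymphocyte markers, of which 1 of 4 and 3 of 4 were measured, had means of 5.01 to 5.38 and 3.74 to 4.10 in wild type and 5.12 to 5.48 and 3.95 to 4.18 in knockout. Figures were drawn with matplotlib 3.10.9.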

Additional observations from a re-analysis of the deposited data

Results flagged for a closer look

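Of 36 groups of 4 values checked, covering the 10 fast-fibre genes, their 7 counterparts and Kat2a in each genotype, 1 had a value far from the others. In wild type, Actn3 measured 12.19 in array 3 against 12.29 to 12.31 in the other arrays, a gap of 0.835 of the group's whole range. Chance gives about 1 such value in 20 groups. The same muscle did not stand apart for Myh2, Myh1 or Myh4.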

How the results depend on the processing

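The count of 0 among the 10 fast-fibre genes held in each of the 20 alternatives, including a threshold of 0.10, and the smallest limma adjusted p of any of the 10 in any refit was 0.722. Mylpf, Tnnt3, Tnni2, Tnnc2, Atp2a1 and Actn3 kept their direction in all 19 refits, but single arrays moved most of them by over 1.5 times. With 1 array left out at a time Actn3 ranged from -0.0777 (without knockout 1) to -0.00357 (without knockout 2), Mylpf from 0.0360 (without knockout 4) to 0.151 (without knockout 2) and Tnni2 from 0.0236 (without knockout 1) to 0.0693 (without knockout 2). Tnnc2 ranged from 0.0584 to 0.151, Tnnt3 from 0.0303 to 0.0573 and Atp2a1 from -0.0674 to -0.0440. In the same refits Myh2 ranged from -0.820 to 0.0107, Myh1 from -0.44 to -0.05, Myh4 from -0.0182 to 0.0177 and Pvalb from -0.0219 to 0.0366. Without wild type 2 and knockout 4 together Myh1 was 0.0236. Myh4 was also below 0 after median centring (-0.00287) and with array weights (-0.00134), as was Pvalb after quantile normalization (-0.00626), median centring (-0.000769) and array weights (-0.000568). The cause of these sign changes was not tested. Over all genes the count of 3 became 11 and 13 without the dimmest 25% and 50% of genes, 17 with an intensity trend and robust prior, 16 at a threshold of 0.10, 1 without wild type 2 and knockout 4, 0 over every transcript cluster, 0 with the replicate number as a block, and 0 to 5 with 1 array left out. The block changed no call among the 10. A next-brightest cluster could not be tried, since each of the 10 genes had 1.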
